A study of Mus musculus with 4 samples.

Results

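Adrenomedullin signalling was described through 5 genes of the 20284 in the deposited expression table: Adm, which encodes the peptide hormone, Calcrl, which encodes the receptor, and Ramp1, Ramp2 and Ramp3, which encode its partner proteins. They were picked by name for how they stood across cell classes and between DUX-pulsed and control cells, so the levels and differences of these 5 genes are given as descriptions, with standard errors and without tests. RNA had been counted in single cells of mouse embryoid bodies, which are clumps of embryonic stem cells left to differentiate, on day 9. DUX-pulsed embryoid bodies, from stem cells given a pulse of the transcription factor DUX, made up 2 libraries, and control embryoid bodies, from stem cells without the pulse, made up the other 2. The labels name no cell line, strain, clone or pulse length. The series design calls the libraries of a group biological replicates.

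Adrenomedullin is a secreted peptide that widens blood vessels and is needed for the growth of blood and lymph vessels in the embryo. Its receptor CALCRL, a G protein-coupled receptor of the calcitonin receptor family, reaches the cell surface with a receptor activity-modifying protein (RAMP). With RAMP2 or RAMP3 the receptor responds to adrenomedullin, and with RAMP1 it responds to calcitonin gene-related peptide. The bound receptor couples to the stimulatory G protein and raises cyclic AMP. In mouse embryos, loss of Adm, Calcrl or Ramp2 leads to oedema and death before birth, and in adult tissues the receptor is best known from endothelium.

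After cells with under 500 detected genes or over 10% mitochondrial counts were left out, 2063 and 1353 DUX-pulsed cells and 2824 and 2636 control cells remained. Median depth lay between 27260 and 27621 unique molecular identifiers (UMIs, 1 per captured RNA molecule) in DUX-pulsed libraries and between 28320.5 and 30402.5 in control libraries. The median mitochondrial share was 4.01% and 4.54% in DUX-pulsed libraries, against 6.22% and 6.42% in control libraries, and its part in the results was tested only by a stricter limit, given below where it mattered. Cells were clustered over all 4 libraries without the 5 genes, and 11 of the 26 clusters met the marker rule for a name, which gave 9 named classes. The remaining clusters are called by their 3 leading genes. All 18 endothelial markers were detected in the endothelium-like class of every library, with a summed level of 5450 and 7640 CPM (counts scaled to a total of 1000000) in DUX-pulsed libraries and of 5210 and 7390 CPM in control libraries. That class held 69 and 42 DUX-pulsed cells, against 40 and 12 control cells, so the second control library weighs little there.

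In the libraries as a whole, Adm, Calcrl and Ramp1 stood higher in DUX-pulsed embryoid bodies, and Ramp2 and Ramp3 stood lower. In such sums, more cells of a type and more RNA per cell cannot be told apart. None of the 5 genes overlapped between the groups, where 67.6% of the 16140 genes tested did not overlap. The fit over all genes (edgeR quasi-likelihood test, adjusted p under 0.05) called 4 of the 5, all but Ramp3, and it called 26.7% of all genes. Both counts follow from how the genes were picked.

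The ligand gene Adm had 27.6 and 34.8 CPM in the DUX-pulsed libraries, against 12.8 and 13.1 CPM in the control libraries. Both DUX-pulsed libraries lay above both controls, with a log2 fold change of 1.27 ± 0.17 (SE, 2 libraries per group). The receptor gene Calcrl had 8.56 and 9.66 CPM in DUX-pulsed libraries, against 2.71 and 1.67 CPM in control libraries. Its log2 fold change was 2.05 ± 0.29 (SE), the farthest from 0 of the 5 genes, and it was the gene whose control libraries differed most from each other in proportion to their mean.

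Among the partner genes, Ramp2 had 100.3 and 93.2 CPM in DUX-pulsed libraries, against 282 and 297 CPM in control libraries, a log2 fold change of −1.58 ± 0.15 (SE). Ramp1 had 16.3 and 11.7 CPM in DUX-pulsed libraries, against 7.85 and 7.59 CPM in control libraries, a log2 fold change of 0.86 ± 0.21 (SE). Ramp2, which makes CALCRL an adrenomedullin receptor, and Ramp1, which makes it a receptor for calcitonin gene-related peptide, thus stood on opposite sides of 0. The direction of Ramp1 depended on the cell filter: under a stricter filter (1000 genes or more, mitochondrial share of 5% or less), which kept 1320 and 694 DUX-pulsed cells and 644 and 523 control cells, its log2 fold change was −0.29. Ramp3 was scarce, with 2.44 and 2.12 CPM in DUX-pulsed libraries, against 3.70 and 3.68 CPM in control libraries, and its log2 fold change was −0.69 ± 0.23 (SE). The other 4 genes kept their direction under the stricter filter, at 0.72 for Adm, 1.81 for Calcrl, −1.21 for Ramp2 and −0.54 for Ramp3 on the log2 scale.

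**Figure D1:**
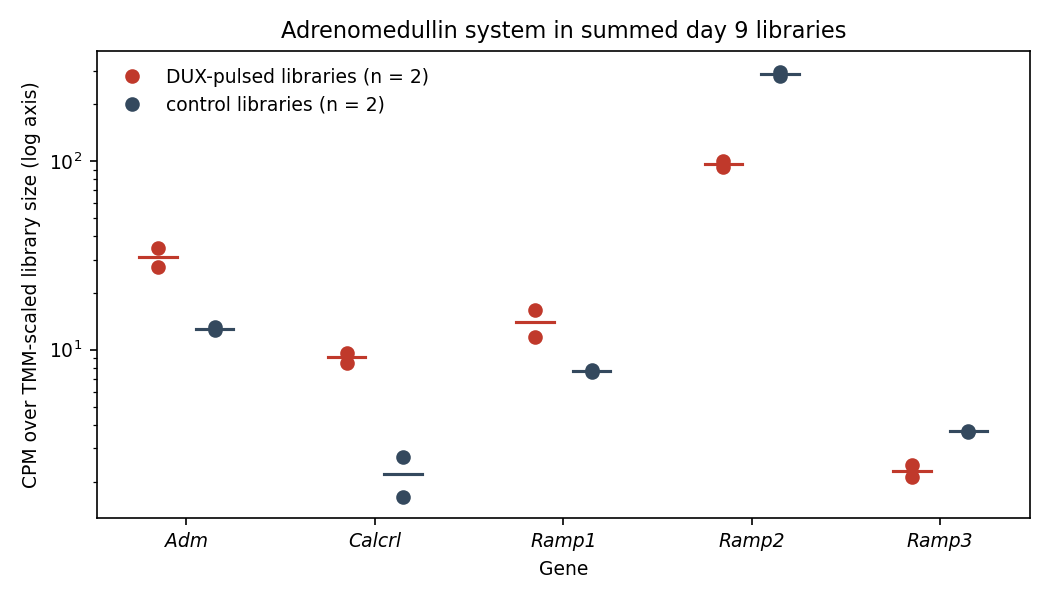
Level of the 5 genes in each library, in CPM over TMM-scaled library size on a log axis, with DUX-pulsed libraries left of control libraries for each gene. Points are libraries and bars are group means (n = 2 each). Ramp2 lies near 100 CPM in DUX-pulsed libraries and near 290 CPM in control libraries, while Adm, Calcrl and Ramp1 lie higher in DUX-pulsed libraries.

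The 5 genes lie on 4 chromosomes of the mouse genome (build mm10, GENCODE vM21 annotation). Adm is at chr7:110627661-110629820 on the plus strand, overlapped by the antisense gene Gm28863. Calcrl is at chr2:84330626-84425411 on the minus strand, and Ramp1 is at chr1:91179822-91225196 on the plus strand. Ramp2, at chr11:101246028-101259546, overlaps Vps25 on the same strand, and Ramp3, at chr11:6658521-6677475, overlaps the pseudogene Gm11978 on the other strand. Reads of overlapping genes may not be told apart, and whether counting used the strand is not given in the sources used here. The 50 nearest tested genes around each member had median log2 fold changes between −0.02 and 0.17, against −0.002 for all genes tested. These stretches were wide, such as chr2:75989141-90866810 around Calcrl. Whether a smaller stretch had shifted together with the gene was not tested.

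The promoter of Adm is shown because Adm is a textbook target of hypoxia-inducible factors, whose other target genes were also counted here. RefSeq (GRCm38.p6) gives the 250 bases before the gene's start, at chr7:110627407-110627656 on the plus strand, as follows, where capitals mark the letters CACGC, which read GCGTG on the other strand.
Adm promoter: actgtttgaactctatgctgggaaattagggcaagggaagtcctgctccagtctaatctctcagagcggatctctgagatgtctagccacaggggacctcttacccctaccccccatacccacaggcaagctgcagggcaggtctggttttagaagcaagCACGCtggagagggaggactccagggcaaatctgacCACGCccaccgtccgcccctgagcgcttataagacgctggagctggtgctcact
The core of the hypoxia response element was searched as ACGTG or GCGTG on both strands. The Adm promoter held 2 matches, both GCGTG on the other strand, at 90 to 86 and at 54 to 50 bases before the start. At least 1 match stood in 38.6% of all 32851 promoters of that length, and 2 or more stood in 16.7%. Promoters were matched for 4 of the 5 genes: Ramp3 also held 2 matches, and Calcrl and Ramp1 held 0. A match describes letters only and does not show that a factor binds there.

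Within cell classes, a level is the count of a gene divided by all UMIs of that class in that library, in CPM. Levels were compared in the 11 classes or unnamed clusters with at least 10 cells in every library, and directions were counted only where a gene had at least 20 UMIs over the 4 libraries. Adm met this in 9 of them. Both DUX-pulsed libraries lay above both controls in 7 and below both in 0, and the groups overlapped in 2. In 1 of the 7, cluster 0, the second control library had no Adm UMI, which allows up to 5.75 CPM, against 4.92 and 7.72 CPM in DUX-pulsed libraries. Such a lack of overlap was common: it held for 42.8% of the genes tested in parietal endoderm-like cells, 43.5% in endothelium-like cells, 45.5% in cluster 9, 47.1% in cluster 0, 48% in cluster 7 and 48.8% in erythroid-like cells. It held for 49.3% in cluster 3, 49.6% in mesenchyme-like cells, 52.3% in cardiomyocyte-like cells, 52.9% in cluster 1 and 54.9% in cluster 10.

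A fit across genes was made in the 4 clusters with at least 20 cells in every library, and it is given for the 5 genes as a description. In cluster 1, edgeR called 1 of the 2 members it could test, Ramp2 with a log2 fold change of −3.31 ± 0.29 (SE), where it called 8.07% of all genes. In cluster 3 it called 1 of 4, Ramp1 with −1.57 ± 0.26 (SE), where it called 5.09% of all genes. In cluster 10 it called 1 of 5, Ramp2 with −1.16 ± 0.22 (SE), where it called 11.9% of all genes. In cluster 9 (Lars2, AY036118, Vrtn), whose cells were of low depth, it called 0 of 1, with −1.15 ± 0.36 (SE) for Ramp2, where it called 3.53% of all genes. Adm was not called in either cluster where it was tested, with 1.02 ± 0.41 (SE) in cluster 3 and −0.39 ± 0.38 (SE) in cluster 10.

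Adm was highest in endothelium-like cells of either group, where it had 138 and 182 CPM in DUX-pulsed libraries, against 64.4 and 77.9 CPM in control libraries. The groups did not overlap, and the log2 ratio of the means was 1.17. With the stricter cell filter it was 0.50, with 5 cells left in the second control library. In DUX-pulsed embryoid bodies cardiomyocyte-like cells came next, with 62.6 and 78.3 CPM. Mesenchyme-like cells (cluster 17, led by Upk3b, Lum and Dcn) followed, with 29.7 and 36.8 CPM. These first 3 places did not overlap. Of the 16 mesenchyme markers, 11 were raised in cluster 17, against 14 in cluster 0 and 13 in cluster 3, which were left unnamed. In DUX-pulsed libraries Adm had 4.92 and 7.72 CPM in cluster 0, and 9.77 and 21.6 CPM in cluster 3. From the fourth place, parietal endoderm-like cells with 23.7 and 18.9 CPM, down to the twelfth, neighbouring levels overlapped.

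In control embryoid bodies the second highest level of Adm was that of cluster 13 (Camkv, Rarres1, Gsdma2), with 22.2 and 24.9 CPM, and it overlapped with that of cluster 8 (Enpp3, Sapcd2, Ly6h), with 23.6 and 20.5 CPM. Cardiomyocyte-like cells of control libraries had 9.48 and 20.1 CPM, on 8 and 9 UMIs in 50 and 19 cells. DUX-pulsed libraries had 603 and 587 Adm UMIs in 403 and 276 such cells, and the log2 ratio was 2.25. The difference in mesenchyme-like cells was wider still, since control libraries had 4.55 and 1.68 CPM there, on 4 UMIs and 1 UMI. Within cluster 4, the larger cardiomyocyte-like cluster, Adm had 62.7 and 81.2 CPM in DUX-pulsed libraries, against 12.6 and 50.2 CPM in control libraries. Those control values rest on 4 and 5 UMIs, and the exact Poisson interval of the second, 16.3 to 117 CPM, holds both DUX-pulsed values.

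The source of the Adm molecules differed with the make-up of the cultures. Cardiomyocyte-like cells held 34.9% and 46.4% of all Adm UMIs in DUX-pulsed libraries, against 0.658% and 0.834% in control libraries. Left out of that class was cluster 22 (Tdgf1, Myh11, Ankrd1), in which all 16 cardiomyocyte markers were raised. It held 0.231% and 0% in DUX-pulsed libraries, against 1.97% and 2.32% in control libraries, where its Adm level was 10.8 and 14.3 CPM. Endothelium-like cells held 16.6% and 13.6% in DUX-pulsed libraries, against 7.24% and 1.76% in control libraries. Parietal endoderm-like cells held 18.9% and 1.66% in DUX-pulsed libraries, against 3.12% and 0.278% in control libraries. They made up 15.5% of the cells in the first DUX-pulsed library and 3.7% in the second, so the DUX-pulsed libraries differed from each other in this source. Clusters 13 and 8 held 0.174% and 1.03%, and 1.33% and 2.14%, of the Adm UMIs of the DUX-pulsed libraries. In control libraries cluster 13 held 29.8% and 39.9%, and cluster 8 held 26.7% and 32.6%. In cluster 10 (Ghrl, Shh, Nppb) the order of the groups was mixed, with 10.7 and 19.6 CPM in DUX-pulsed libraries, against 27.4 and 14.6 CPM in control libraries. Erythroid-like cells, which are not known to make adrenomedullin, had no Adm UMI in any library.

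**Figure D2:**
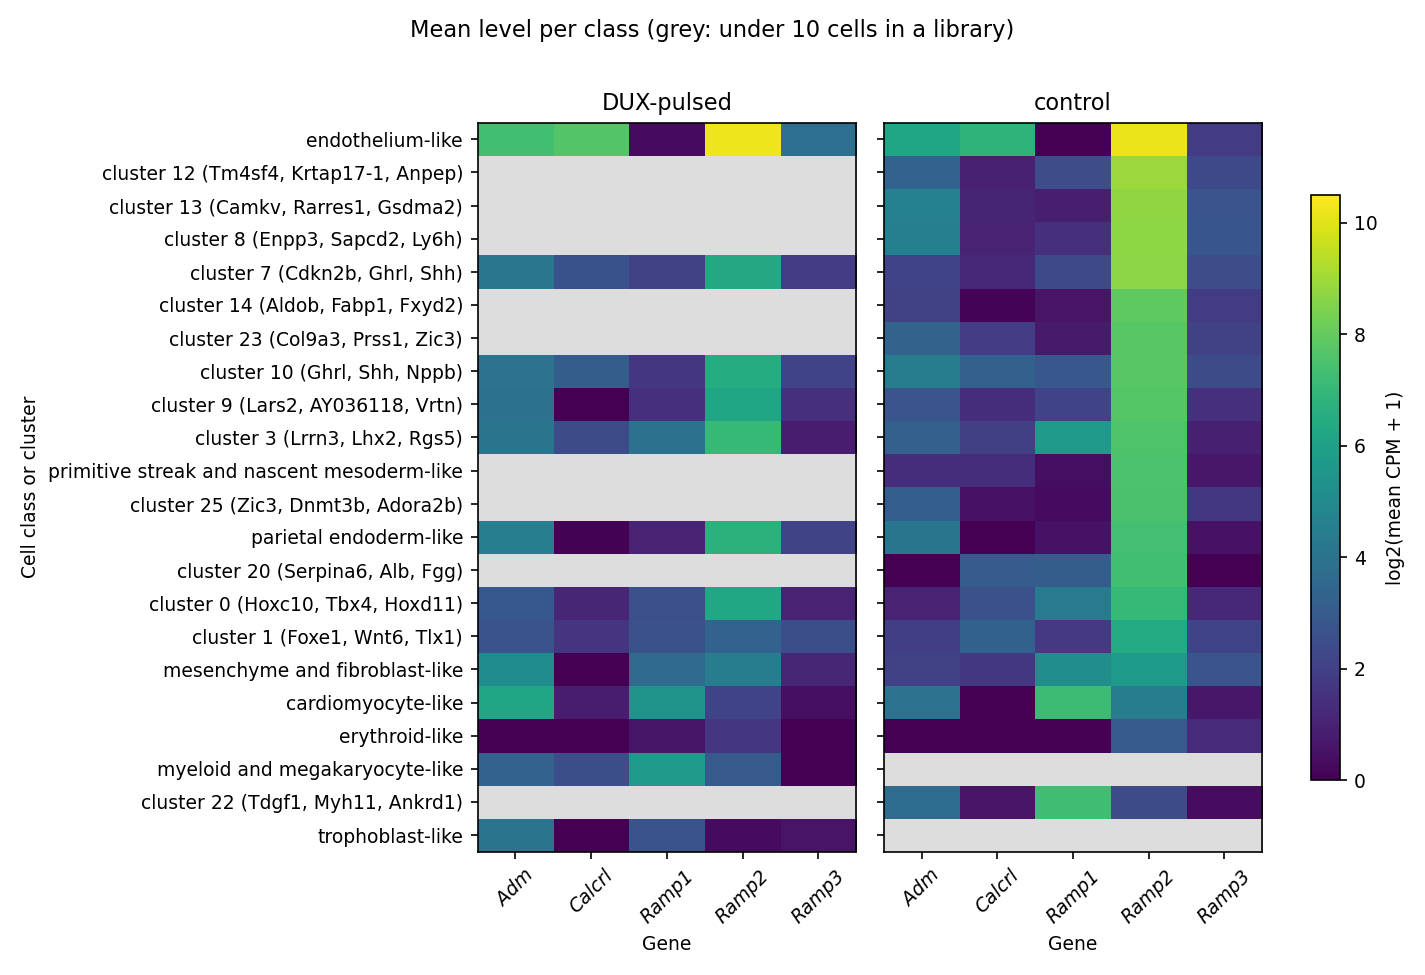
Mean level of each gene, as log2(mean CPM + 1) over the libraries of a group, in each cell class or cluster, with DUX-pulsed on the left and control on the right. Grey marks classes with under 10 cells in a library of that group. Endothelium-like cells are brightest for Adm, Calcrl and Ramp2 in both groups, and Ramp2 is spread over more classes in control embryoid bodies.

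Calcrl was concentrated in endothelium-like cells. It had 176 and 239 CPM there in DUX-pulsed libraries, against 88.5 and 140 CPM in control libraries, a log2 ratio of 0.86 with no overlap between the groups. The next class stood far lower, at 5.98 and 9.06 CPM in cluster 10 of DUX-pulsed libraries and at 8.14 and 8.85 CPM in cluster 1 (Foxe1, Wnt6, Tlx1) of control libraries. Endothelium-like cells held 68.5% and 64.4% of all Calcrl UMIs in DUX-pulsed libraries, against 46.9% and 24.8% in control libraries. The class made up 3.34% and 3.10% of the cells in DUX-pulsed libraries, against 1.42% and 0.455% in control libraries.

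Outside the endothelium-like class, Calcrl had 2.68 and 3.52 CPM in DUX-pulsed libraries, against 1.44 and 1.32 CPM in control libraries. With the endothelium-like class counted, it met 20 UMIs in 5 classes, and DUX-pulsed libraries were above controls in 3, below in 1 and overlapping in 1. The shares of all genes without overlap in these classes stand above. Outside the endothelium-like class DUX-pulsed libraries were above in 2, clusters 3 and 7. In cluster 3 the groups all but met, at 3.91 and 5.05 CPM in DUX-pulsed libraries, against 3.89 and 2.02 CPM in control libraries. Those control values rest on 14 and 5 UMIs. The class below was cluster 1, where Calcrl had 4.02 and 0 CPM in DUX-pulsed libraries, against 8.14 and 8.85 CPM in control libraries. Cluster 7 (Cdkn2b, Ghrl, Shh) was above, with 4.28 and 6.14 CPM in DUX-pulsed libraries, against 1.23 and 1.35 CPM in control libraries, where each value was a single UMI.

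Ramp2 was likewise highest in endothelium-like cells, and there the groups overlapped. Its level was 1155 and 1263 CPM in DUX-pulsed libraries, against 1202 and 1153 CPM in control libraries, and the log2 ratio of the means was 0.04. Endothelium-like cells thus had the adrenomedullin-type partner at overlapping levels with and without the pulse, while Calcrl and Adm were higher after it. Markers of other cell types were also found in it: the 16 mesenchyme markers, some of which, such as Vim, endothelium also expresses, summed to 6820 and 6840 CPM in DUX-pulsed libraries, against 5190 and 3600 CPM in control libraries, and the 15 erythroid markers to 433 and 117 CPM in DUX-pulsed libraries, against 88.5 and 82.0 CPM in control libraries. The 16 cardiomyocyte markers summed to 331 and 250 CPM in DUX-pulsed libraries, against 197 and 135 CPM in control libraries, and so moved with Adm, for which cardiomyocyte-like cells were the second highest class in DUX-pulsed libraries. The part of these markers in the levels of the 5 genes was not tested.

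Receptor and partner were also counted in the same cells. In the endothelium-like class, at least 1 Calcrl UMI stood in 98 of 111 DUX-pulsed cells, against 39 of 52 control cells. Ramp2 was found in 97 of those 98 DUX-pulsed cells and in all 39 control cells. It was near saturation there, in 108 of all 111 DUX-pulsed and 51 of all 52 control cells of the class, and in 84.6% of DUX-pulsed and 92.3% of control cells without a Calcrl UMI. Ramp3 was found in 20 of the 98 DUX-pulsed cells and in 3 of the 39 control cells, and Ramp1 in 1 of the 98 and in 0 of the 39. Cells of a library are not replicates, and these shares depend on depth, with medians of 25060 UMIs in DUX-pulsed and 31570 UMIs in control cells of the class.

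With every cell thinned to 5000 UMIs, which left out 7 DUX-pulsed and 3 control cells of the class, Calcrl was found in 54.8% of 104 DUX-pulsed cells (95% exact binomial interval 44.7% to 64.6%), against 34.7% of 49 control cells (21.7% to 49.6%). Adm was found in 45.2% of the thinned DUX-pulsed cells (35.4% to 55.3%), against 22.4% of the thinned control cells (11.8% to 36.6%). Intervals pool the cells of 2 libraries and cover counting error only. By library, Calcrl was found in 50.7% of 69 and 62.9% of 35 thinned DUX-pulsed cells, against 32.5% of 40 and 44.4% of 9 thinned control cells. The thinned shares followed the same order as the levels in CPM, while Ramp2 was found in 103 of the DUX-pulsed and 48 of the control cells. In erythroid-like cells, taken as a measure of free RNA, 0 of 80 thinned DUX-pulsed and 0 of 38 thinned control cells had a Calcrl UMI, which at a floor of 3 cells allows shares of up to 3.75% and 7.89%.

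Outside that class, Calcrl was found at full depth in 189 of 3305 DUX-pulsed cells and in 183 of 5408 control cells. Of these, 50.3% of the DUX-pulsed and 89.6% of the control cells also had Ramp2. Among the other cells outside the class, those without a Calcrl UMI, 40.2% of DUX-pulsed and 77.2% of control cells had Ramp2. At 1 UMI or more of each, Ramp2 was thus found more often beside Calcrl, and this held in each of the 4 libraries. At 2 UMIs or more of each, the order differed between libraries. Ramp2 then stood in 27.8% of cells with Calcrl, against 30.6% of the others, in the first DUX-pulsed library. In the second DUX-pulsed library it stood in 40%, against 24.9%. The control libraries had 76.2% against 70.6% in the first and 53.3% against 72.8% in the second. With cells thinned to 5000 UMIs, Ramp2 was found in 25% of 36 DUX-pulsed cells with Calcrl (95% exact binomial interval 12.1% to 42.2%), against 20.2% of DUX-pulsed cells without it. In control libraries it was found in 75% of 32 thinned cells with Calcrl (56.6% to 88.5%), against 64.2% of those without it. At equal depth the values without Calcrl thus lay within both intervals, which pool the cells of 2 libraries.

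Outside endothelium-like cells Ramp2 was far lower in DUX-pulsed embryoid bodies, with 61.5 and 61.8 CPM, against 266 and 310 CPM in control libraries, a log2 ratio of −2.22. Of the 10 classes with at least 20 Ramp2 UMIs, both DUX-pulsed libraries lay below both controls in 9, and the endothelium-like class was the one that overlapped. A lack of overlap, in either direction, held for 42.8% to 54.9% of all genes tested in the 11 classes compared. Cluster 7 had 93.5 and 67.5 CPM in DUX-pulsed libraries, against 424 and 396 CPM in control libraries, a log2 ratio of −2.35. Its leading genes include Shh, which encodes a signal of gut epithelium, and Ghrl, which encodes the stomach hormone ghrelin.

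Cluster 1, led by the transcription factor genes Foxe1 and Tlx1 and by Wnt6, had 6.58 and 11.2 CPM of Ramp2 in DUX-pulsed libraries, against 76.3 and 93.8 CPM in control libraries, the log2 ratio farthest from 0 among the 9 classes at −3.26. Cluster 10 had 82.7 and 96.3 CPM in DUX-pulsed libraries, against 255 and 175 CPM in control libraries. Smaller differences stood in cluster 3 (Lrrn3, Lhx2, Rgs5), with 106 and 157 CPM in DUX-pulsed libraries, against 182 and 208 CPM in control libraries. In parietal endoderm-like cells the groups all but met, at 108 and 106 CPM in DUX-pulsed libraries, against 109 and 219 CPM in control libraries. Cardiomyocyte-like cells had 1.87 and 4.67 CPM in DUX-pulsed libraries, against 30.8 and 11.2 CPM in control libraries, where those 2 values rest on 26 and 5 UMIs. Erythroid-like cells, the measure of free RNA, had 3.26 and 1.04 CPM in DUX-pulsed libraries, against 13.7 and 0 CPM in control libraries. The part of free RNA in the cardiomyocyte-like values was not tested.

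**Figure D3:**
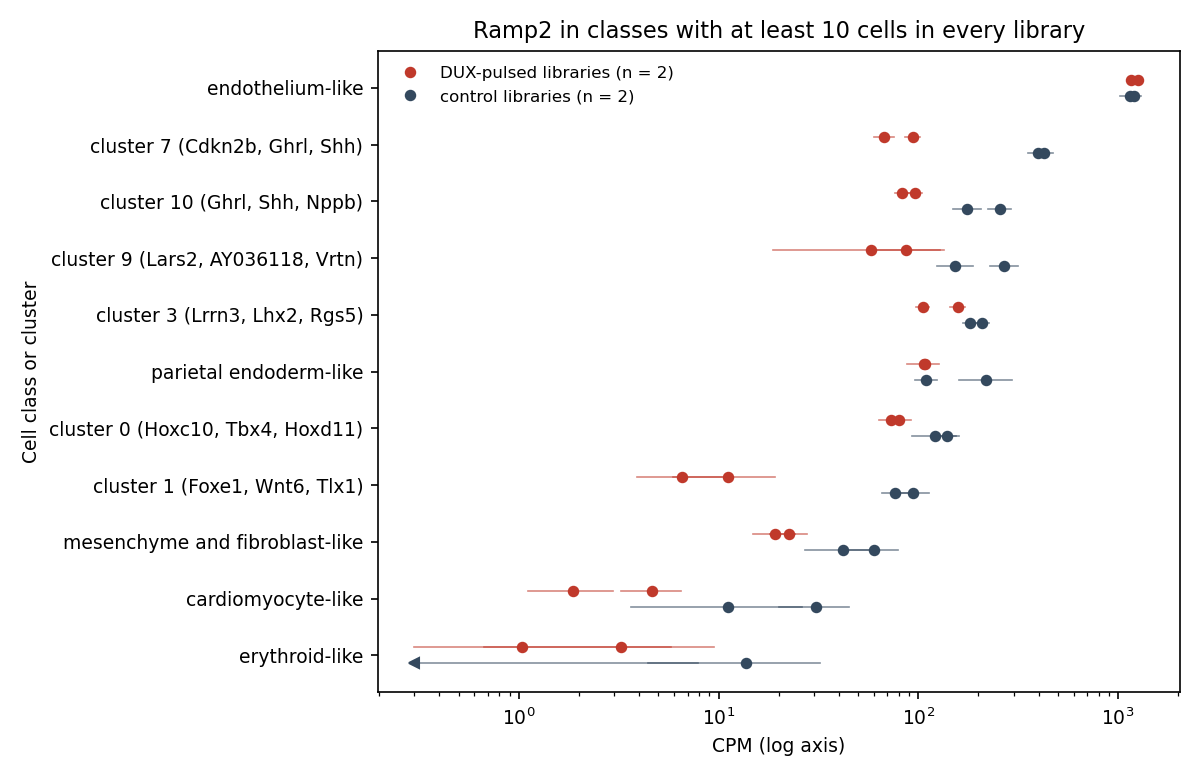
Ramp2 level in CPM (log axis) per library in the 11 classes with at least 10 cells in every library, DUX-pulsed above control in each row. Points are libraries, lines are exact Poisson 95% intervals for the counts, and a triangle marks a library with no UMI, drawn at 0.3. The groups overlap at the top in endothelium-like cells, and both DUX-pulsed libraries lie below both controls in the other classes but the erythroid-like class.

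Much of the control Ramp2 lay in clusters that the DUX-pulsed libraries almost lacked. Cluster 13 had 417 and 441 CPM in control libraries and held 25.3% and 31.2% of their Ramp2 UMIs, and cluster 8 had 426 and 408 CPM and held 21.8% and 28.7%. Cluster 12 (Tm4sf4, Krtap17-1, Anpep) stood second to the endothelium-like class among control levels, at 453 and 519 CPM. DUX-pulsed libraries had 7 and 15 cells of cluster 13, 6 and 11 of cluster 8, and 1 and 3 of cluster 12. In DUX-pulsed libraries endothelium-like cells held 38.4% and 35.2% of the Ramp2 UMIs, against 6.11% and 1.15% in control libraries. Trophoblast-like cells of the DUX-pulsed libraries had 1 Ramp2 UMI between them.

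Ramp1 followed another pattern: it was higher in DUX-pulsed libraries as a whole and lower in several single classes. In 7 classes with at least 20 UMIs, both DUX-pulsed libraries lay below both controls in 5, above in 1 and overlapping in 1. Without that limit they lay below in 5 of the 11 classes, above in 1 and overlapping in 5. The shares of all genes without overlap in each class are given above. Cardiomyocyte-like cells had 54.8 and 30.7 CPM in DUX-pulsed libraries, against 79.4 and 212 CPM in control libraries, a log2 ratio of −1.77. The control value rests on 50 and 19 cells, and the 2 clusters of the class were mixed in different proportions. Cluster 4 held 292 and 213 cells and cluster 5 held 111 and 63 in DUX-pulsed libraries, against 32 and 10 in cluster 4 and 18 and 9 in cluster 5 in control libraries. Within cluster 4 alone the groups overlapped, at 66.1 and 36.7 CPM in DUX-pulsed libraries, against 50.5 and 90.3 CPM in control libraries. In cluster 5 Ramp1 had 34.5 and 18.0 CPM in DUX-pulsed libraries, on 119 and 43 UMIs, against 96.9 CPM in the first control library on 51 UMIs in 18 cells. The second control library had 86 UMIs in 9 cells of cluster 5, under the limit for a level.

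In cluster 3 Ramp1 had 15.3 and 14.02 CPM in DUX-pulsed libraries, against 38.1 and 61.8 CPM in control libraries. Mesenchyme-like cells had 13.6 and 9.58 CPM in DUX-pulsed libraries, against 38.6 and 31.9 CPM in control libraries. Cluster 0 (Hoxc10, Tbx4, Hoxd11), led by limb and trunk patterning genes, had 2.63 and 7.36 CPM in DUX-pulsed libraries, against 23.5 and 15.3 CPM in control libraries. These 3 classes were alike in direction, and the groups did not overlap in any of them.

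Cardiomyocyte-like cells held more of the Ramp1 UMIs of DUX-pulsed libraries than any other class. The part of cell make-up in the difference over whole libraries was not tested. Cardiomyocyte-like cells made up 19.5% and 20.4% of the cells in DUX-pulsed libraries, against 1.77% and 0.721% in control libraries. They held 51.7% and 53.9% of the Ramp1 UMIs of DUX-pulsed libraries, against 8.96% and 15.2% in control libraries. Myeloid and megakaryocyte-like cells had 61.6 and 36.5 CPM in DUX-pulsed libraries and held 20.8% and 10.1% of the Ramp1 UMIs there, and their C1qb-positive cluster alone had 69.5 and 59.5 CPM. In control libraries, cluster 22 (Tdgf1, Myh11, Ankrd1), which expresses muscle genes, had the highest mean level, at 161 and 146 CPM. It held 47.9% and 40.9% of the Ramp1 UMIs there and made up 3.12% and 2.69% of the cells. Its level overlapped with that of the cardiomyocyte-like class, at 79.4 and 212 CPM. All 16 cardiomyocyte markers were raised in cluster 22, but only 3 stood among its 30 leading genes, where a name required 4. The control shares given for cardiomyocyte-like cells thus leave its cells out. Endothelium-like cells had 1 Ramp1 UMI over all 4 libraries.

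**Figure D4:**
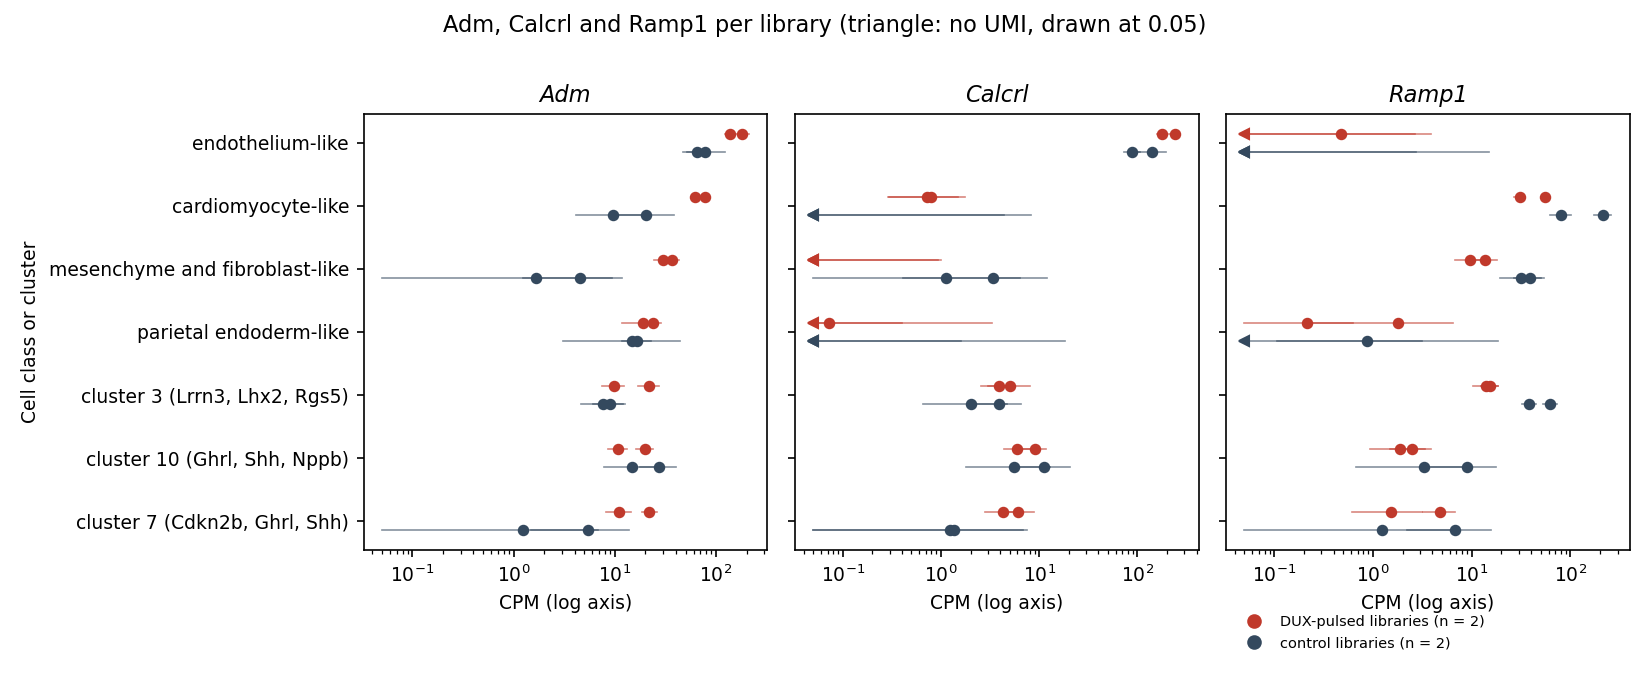
Level of Adm, Calcrl and Ramp1 in CPM (log axis) per library in 7 cell classes, DUX-pulsed above control in each row. Points are libraries, lines are exact Poisson 95% intervals for the counts, and triangles mark libraries with no UMI, drawn at 0.05. Adm lies to the right in DUX-pulsed libraries in every row but that of cluster 10, and Calcrl is high in the endothelium-like row alone. Ramp1 lies to the left in DUX-pulsed libraries in cardiomyocyte-like and mesenchyme-like cells and in clusters 3 and 10.

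Ramp3 was sparse in every class, with 153 and 77 UMIs in DUX-pulsed libraries and 353 and 303 UMIs in control libraries over all cells. Endothelium-like cells had the highest level in DUX-pulsed libraries, at 11.02 and 15.9 CPM on 23 and 15 UMIs, against 5.12 and 0 CPM in control libraries on 7 and 0 UMIs. Parietal endoderm-like cells had 3.26 and 3.60 CPM in DUX-pulsed libraries, against 0.875 and 0 CPM in control libraries. Among classes with at least 10 cells in both control libraries, the highest mean level there was that of cluster 8, at 5.82 and 6.07 CPM, and it overlapped with that of the next class. Pluripotency-like cells, with 34 and 3 cells in control libraries, had 11.3 CPM in the first, on 21 UMIs. Among the 5 classes with at least 20 UMIs, Ramp3 was above in 2, below in 1 and overlapping in 2, beside the shares of all genes given above. The class below, cluster 7, had 2.85 and 2.19 CPM in DUX-pulsed libraries. Its control libraries had 3.69 and 5.39 CPM, on only 3 and 4 UMIs. Both classes above, endothelium-like and parietal endoderm-like, had 0 UMIs in the second control library, in 12 and 10 cells, which allows up to 12.3 and 14.9 CPM, so these classes do not show Ramp3 to be higher in DUX-pulsed cells.

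The weight of cell make-up and of level within classes was set out over the 16 classes or clusters with at least 10 cells in each group, which held 96.5% of DUX-pulsed and 54.4% of control UMIs. With the class shares and the levels of DUX-pulsed cells, Ramp2 came to 96.0 CPM, and with the shares and levels of control cells to 349 CPM. With control levels at DUX-pulsed shares it came to 183 CPM, and with DUX-pulsed levels at control shares to 156 CPM, so each replacement alone gave less than control shares and levels. For Ramp1, DUX-pulsed shares and levels gave 14.8 CPM and control shares and levels gave 13.6 CPM. Control levels at DUX-pulsed shares gave 35.4 CPM and DUX-pulsed levels at control shares gave 8.41 CPM, in opposite directions. For Adm, DUX-pulsed shares and levels gave 30.5 CPM, DUX-pulsed levels at control shares gave 36.6 CPM, control levels at DUX-pulsed shares gave 11.7 CPM, and control shares and levels gave 19.1 CPM. For Calcrl the values in that order were 8.82, 4.35, 5.71 and 3.23 CPM, and for Ramp3 they were 2.21, 4.15, 2.41 and 4.66 CPM. These sums describe the libraries and carry no test.

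Over the 24 clusters with at least 50 cells, the genes most like each of the 4 members that reached 20 CPM were found by Pearson's r on log2(CPM + 1). Clusters share libraries, so r is a description. Calcrl was most like Notch4 (r = 0.86), a Notch receptor gene of endothelium, Tmem100 (r = 0.84) and Rasip1 (r = 0.82), which encodes an endothelial regulator of small GTPases. Ramp2 was most like Zfp711 (r = 0.91), Chst15 (r = 0.86) and Plcg1 (r = 0.85), the last encoding a phospholipase downstream of growth factor receptors. Ramp1 was most like Pdk3 (r = 0.87), Fam49a and Angpt1 (both r = 0.86), the last encoding a ligand of the endothelial receptor TIE2. Adm was most like the spectrin gene Sptbn1 (r = 0.75), Tspan2 (r = 0.74) and Sbf2 (r = 0.71). With Spearman's rho, 1, 1, 1 and 0 of these 3 genes stayed for Adm, Ramp1, Ramp2 and Calcrl.

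The other genes of the pathway were counted over whole libraries, where 15.6% of the 16140 genes tested rose and 11.1% fell, with a median log2 fold change of −0.002 (edgeR quasi-likelihood test, Benjamini-Hochberg adjusted p under 0.05). A list of calcitonin family ligands and receptors also took in genes of proteins linked to them, namely Crcp, Ackr3 and Gpr182. Of its 7 genes tested, 0 rose and 2 fell, with a median of −0.43. Calcr, the calcitonin receptor gene, had 0.287 and 0.413 CPM in DUX-pulsed libraries, against 2.13 and 1.93 CPM in control libraries. It fell by 2.56 ± 0.34 in log2 units (± SE), with an adjusted p of 0.00524. It did not pass with the stricter cell filter (−1.95, adjusted p = 0.0877) or with cells thinned to 5000 UMIs (−1.49, adjusted p = 0.11). Iapp, which encodes islet amyloid polypeptide, had 0 UMIs in both DUX-pulsed libraries, against 31 and 32 UMIs in control libraries, and was at least 12.2-fold lower against a floor of 3 counts per group (adjusted p = 0.0083).

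Among the rest of that list, Adm2, which encodes intermedin, another ligand of CALCRL, had 3.03 and 4.07 CPM in DUX-pulsed libraries, against 5.71 and 4.26 CPM in control libraries, and did not pass (adjusted p = 0.221). Ackr3, which encodes a decoy receptor that binds adrenomedullin, had 8.14 and 12.9 CPM in DUX-pulsed libraries, against 4.79 and 7.60 CPM in control libraries, and did not pass (adjusted p = 0.133). Calca, the gene of calcitonin and calcitonin gene-related peptide, was under 1 CPM in every library (adjusted p = 0.48). Crcp, which encodes a component of the receptor complex, had a log2 fold change of −0.43 (adjusted p = 0.13), and Gpr182, whose product was once proposed as an adrenomedullin receptor, had 0.48 (adjusted p = 0.329).

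Of 8 genes for the maturation, binding and breakdown of the peptide, 5 rose and 0 fell, with a median log2 fold change of 1.07. Ece1, which encodes an endothelin-converting protease, averaged 49.8 CPM in DUX-pulsed and 14.2 CPM in control libraries and rose by 1.81 ± 0.20 in log2 units (± SE), with an adjusted p of 0.00348. Among the others that rose were Cpe, Furin and Mme, which encode peptide-processing or peptide-degrading enzymes.

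Of 24 genes of stimulatory G protein and cyclic AMP signalling, 9 rose and 2 fell, with a median of 0.41. Adcy7, which encodes an adenylyl cyclase, averaged 4.06 CPM in DUX-pulsed and 0.569 CPM in control libraries and rose by 2.83 on the log2 scale (adjusted p = 0.00282). Pde4d, which encodes a phosphodiesterase that breaks cyclic AMP down, averaged 5.48 CPM in DUX-pulsed and 1.35 CPM in control libraries and rose by 2.01 (adjusted p = 0.00362). The genes that rose thus included makers and breakers of cyclic AMP. Of 11 genes of receptor desensitisation and sorting, 2 rose and 3 fell, with a median of 0.006. Grk6, a receptor kinase gene, rose by 1.35 (adjusted p = 0.00305), and Slc9a3r1, which encodes NHERF1, a scaffold that binds RAMP3, fell by 1.27 (adjusted p = 0.00878).

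Of 26 hypoxia-responsive genes, 12 rose and 1, Ankrd37, fell, with a median log2 fold change of 0.54. Eno1, a glycolytic enzyme gene, had 1300 and 1450 CPM in DUX-pulsed libraries, against 456 and 470 CPM in control libraries, and rose by 1.57 (adjusted p = 0.00271). P4ha2, which encodes a collagen prolyl hydroxylase, averaged 180 CPM in DUX-pulsed and 51.9 CPM in control libraries and rose by 1.79 (adjusted p = 0.00325). Vegfa, chosen for mention after its value was seen because it is a textbook hypoxia target, had 65.8 and 109 CPM in DUX-pulsed libraries, against 42.5 and 58.7 CPM in control libraries, and did not pass (adjusted p = 0.0905). Such counts over whole libraries follow cell make-up as well as level, and the lists were drawn up with earlier results of these data known. Over the 5 lists, 36 genes were called, against 14 with the stricter cell filter, 15 without the second control library and 21 without the first.

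**Figure D5:**
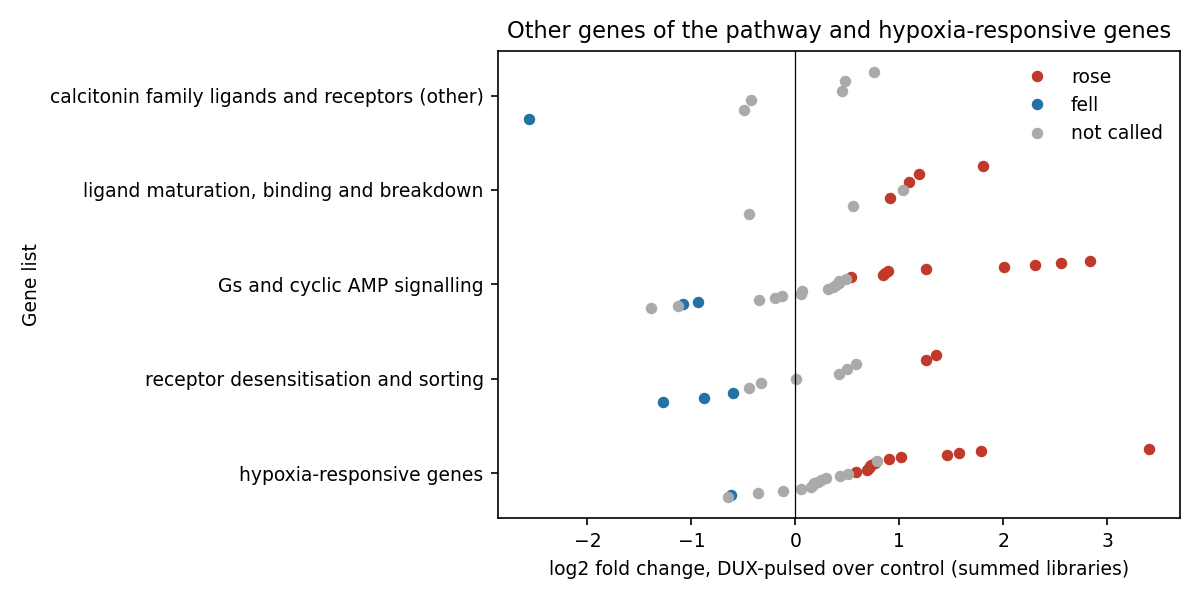
Log2 fold change of each gene, DUX-pulsed over control, in 5 gene lists over summed libraries (n = 2 per group). Colours mark genes that rose, fell or were not called (edgeR, adjusted p under 0.05), and genes absent from a group, such as Iapp, are left out. Genes that rose lie on the right in the lists of ligand maturation, cyclic AMP signalling and hypoxia.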

How the data were processed

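RNA of single cells was measured in 2 DUX-pulsed and 2 control day 9 embryoid body libraries with 10x Genomics chemistry, per the labels' protocols. The authors deposited raw UMI counts for each gene and cell in 1 table, without normalization. Cell Ranger 2.2.0, STAR and build mm10 are named in the submitters' processing notes. The table held 20284 genes and 10090 cells, and libraries shared 0 to 2 barcodes. Column names gave the group (prefix) and the replicate number (suffix). Kept cells had 500 genes or more and a mitochondrial share of 10% or less (8876 cells, 36462169 to 96344329 UMIs in a library). The poorest deposited cell had 501 genes.

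The cells were grouped in scanpy 1.11.5 by Leiden clustering (igraph 0.11.9, resolution 1) on 30 principal components of 2000 variable genes, without the 5 genes, after scaling to 10000 counts and log1p, with 15 neighbours. A name required 4 or more markers of a list among the 30 genes highest by fold, 3 or more markers raised and 50% or more of the list, and no rival list with more among the top 10. Names were rebuilt here and can differ from the study's. Scrublet called 37 doublets (0.417%), too few to have worked. Doublets were kept, and the 367 cells in the top 5% of scores were removed as an alternative.

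Library sums of UMI counts were compared by the quasi-likelihood test of edgeR 4.0.16 (TMM scaling, Benjamini-Hochberg adjustment, threshold 0.05), for genes that reached 10 counts in 2 or more libraries and 40 in all. The 5 genes passed this filter. Such p-values measure the spread between 2 libraries per group. Within classes the fit was made where every library had 20 cells or more (4 clusters), and levels are given from 10 cells, a limit chosen after seeing the data. The code was tested on simulated counts. DESeq2 1.42.0 was an alternative. Named genes were the 5 members, the 2 of each list with the smallest p, the tested genes of the calcitonin list, the 3 most like a member, and the 3 leading genes of unnamed clusters. Other names were chosen after their values were seen. The members and lists were chosen with earlier results of these data known. Calcb was not analysed here. The values of 1 gene counted in the lists are not reported here. Exact Poisson and binomial 95% intervals cover counting error only, and a floor is 3 counts.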

Additional observations from a re-analysis of the deposited data

Results flagged for a closer look

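In single classes, each DUX-pulsed library differed from each control library in 1 direction for Calcrl, Ramp1 and Ramp3, and the direction was not the same in all classes. The difference between classes was not tested. In the 11 classes compared, a lack of overlap held for 42.8% to 54.9% of all genes tested. The mean level of Calcrl, DUX-pulsed minus control, was 93.4 CPM in endothelium-like cells, 3.92 CPM in cluster 7 (Cdkn2b, Ghrl, Shh) and 1.52 CPM in cluster 3 (Lrrn3, Lhx2, Rgs5). In cluster 1 (Foxe1, Wnt6, Tlx1) it was −6.49 CPM, on 11 and 0 UMIs in DUX-pulsed libraries and 19 and 10 UMIs in control libraries. The groups all but met in cluster 3, at 3.91 CPM in the first DUX-pulsed and 3.89 CPM in the first control library.

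For Ramp1 the difference was −103.0 CPM in cardiomyocyte-like cells, −35.2 CPM in cluster 3, −23.7 CPM in mesenchyme-like cells, −14.4 CPM in cluster 0 (Hoxc10, Tbx4, Hoxd11) and −3.97 CPM in cluster 10 (Ghrl, Shh, Nppb). In cluster 1 it was 2.64 CPM, on 11 and 7 UMIs in DUX-pulsed libraries and 9 UMIs and 1 UMI in control libraries. For Ramp3 it was 10.9 CPM in endothelium-like cells and 2.99 CPM in parietal endoderm-like cells, against −2.02 CPM in cluster 7. The cluster 7 value rests on 18 and 10 UMIs in DUX-pulsed libraries and 3 and 4 UMIs in control libraries. The exact Poisson intervals of those control libraries, 0.76 to 10.8 and 1.47 to 13.8 CPM, hold both DUX-pulsed values, 2.85 and 2.19 CPM. The endothelium-like and parietal endoderm-like values of Ramp3 rest on 0 UMIs in the second control library, which allows up to 12.3 and 14.9 CPM.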

How the results depend on the processing

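The log2 fold changes of the 5 genes over whole libraries kept their sign under the alternatives run, except Ramp1, at −0.29 under the stricter cell filter (at least 1000 genes, at most 5% mitochondrial). Under that filter Adm was at 0.72, Ramp2 at −1.21 and Ramp3 at −0.54, and with each cell weighted equally Ramp3 was again at −0.54. In endothelium-like cells it gave 0.50 for Adm and 0.18 for Ramp2. Genes called over whole libraries, 4306, were 2042 under it and 2134 to 4972 without 1 library, and genes called in the pathway lists, 36, were 14 under it and 15 to 44 without 1 library. The call of Calcr was lost under it (adjusted p = 0.0877) and with thinned cells (adjusted p = 0.11), within a range of 1.63e-05 to 0.11 over its alternatives. Within clusters DESeq2 called 424 genes in cluster 1, against 793 with edgeR, 699 against 1283 in cluster 10 and 104 against 183 in cluster 9. With no filter on low counts cluster 1 had 1535, cluster 3 had 1405, against 560, and cluster 9 had 296, and without the top doublet scores cluster 1 had 401. Without 1 library, cluster 10 had 593 to 1354, cluster 9 had 14 to 290, cluster 1 had 641 to 1125 and cluster 3 had 377 to 618. Same-numbered libraries had deviations correlated at 0.35, but 2 pairs do not show that the numbers pair them. With the replicate block 7184 genes were called over whole libraries, 58 in the pathway lists, 1473 in cluster 1, 1950 in cluster 10 and 2670 in cluster 3, and Crcp and Ackr3 passed (adjusted p = 0.0135 and 0.00776). The cause of these moves was not tested. Depth limits Ramp3 most, with 77 UMIs in the thinnest library.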
